A study of Mus musculus with 11 samples.

Results

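Thymic lymphomas driven by a MYC transgene, with Dnmt3b intact, were compared with normal thymocytes across all genes of a whole-transcript array. The members of the comparison are the 6 samples titled as wild-type lymphomas (n = 3) or normal thymocytes (n = 3), out of 11 in the series, and the 19938 genes that lie on a probe set with 1 gene symbol. The series asks how loss of Dnmt3b, a methyltransferase that sets methylation on unmodified DNA, alters these tumors. The other 5 samples, 3 lymphomas and 2 pre-tumor thymi labelled as lacking Dnmt3b, entered the shared estimate of the spread and the choice of the probe set read for each gene, and the Dnmt3b-deficient lymphomas are set against the wild-type ones once, for the 30 largest changes.

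All mice were of the FVB strain and carried EμSR-tTA, an activator made in blood cells that tetracycline controls, and Rosa26LOXPEGFP, a reporter that Cre turns on. Normal thymocytes had in addition Teto-Cre and Dnmt3b+/+, with no MYC transgene, and were taken at 24 days of age. Wild-type lymphomas had in addition Teto-MYC and Dnmt3bF/F without Cre, so that the floxed gene was not cut, and were taken once disease was visible, at an age the labels do not give. Tumors went into TRIzol unsorted, and the labels do not say whether the normal thymocytes were sorted. The MYC transgene, Cre, the floxed allele, the age and the stage therefore differ between the groups at once and cannot be told apart. Per the labels, samples of a group are biological replicates. No sample is a sorted stage of thymocyte, and fewer cells of a type and less RNA per cell cannot be told apart in such bulk RNA.

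MYC is a transcription factor that pairs with MAX, binds E-boxes (CACGTG) and is best known for raising ribosome assembly, protein synthesis, nucleotide supply and cell growth. Most cells of a young thymus are double-positive thymocytes, which carry both CD4 and CD8, rearrange the T cell receptor α locus with the RAG recombinase, depend on BCL-xL for survival and are mostly small cells that no longer divide.

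Levels are deposited log2 values with a floor at 3.32, so a difference of 1 is a 2-fold change and a level at the floor is only an upper limit. A probe set was called when limma's Benjamini-Hochberg adjusted p was under 0.05 over 28939 probe sets, and a gene was read from its probe set with the highest mean. Of all probe sets, 5755 were called, 19.9% of those tested, 2773 of them higher and 2982 lower in wild-type lymphomas. Among genes, 1928 were called higher (9.67%) and 2387 lower (12.0%), and in 37.4% of all genes the 3 tumors did not overlap the 3 normal samples. Such a lack of overlap held for all 1928 genes called higher and 2383 of those called lower, so it adds little to a call. The shares of 9.67% and 12.0% include 2778 genes at the floor in all 6 samples. Among genes with a level of at least 6, grouped by length, 10.7% to 30.2% were called higher and 21.0% to 27.0% lower. Lists below are set beside the shares over all genes, not over genes of like level. A list of well-measured genes can therefore exceed them without being unusual for its level. Called rises were larger than called falls, with a median of 1.09 against -0.78. Beyond 2-fold, 1083 genes rose and 773 fell, but beyond 16-fold 4 rose and 13 fell. Normal thymocytes correlated among themselves with r between 0.986 and 0.991, lymphomas with 0.98 to 0.99, and a tumor with a normal sample with 0.919 to 0.955. Precision is limited by the number of arrays, which have no read depth.

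The defining markers of T cells were measured well above the floor in both groups, so the label of a T-lineage tissue holds in all 6 samples. Their list mean was 10.02, 9.83 and 10.05 in normal thymocytes and 8.82, 8.79 and 8.72 in the lymphomas. Of the 11 markers, 8 fell and 0 rose, with a median difference of -1.42. Cd3e, a signalling chain of the T cell receptor complex, had levels of 10.25, 10.57 and 10.58 in normal thymocytes and 8.91, 8.70 and 9.28 in tumors. Thy1, a surface protein of all thymocytes, had levels of 10.33, 10.45 and 10.25 against 8.80, 8.55 and 9.22. The groups overlapped for neither gene. Without normal replicate 2, 7 of the 11 were called, and without tumor replicate 1, 6.

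Genes that mark double-positive thymocytes held the 2 deepest falls of all named genes. Of the 15 measured, 12 fell and 0 rose, with a median difference of -2.8, beside a median of -0.02 over all genes. Dntt, the polymerase that adds bases at receptor joints, stood at 9.68, 9.62 and 9.82 in normal thymocytes and at 3.98, 3.40 and 3.57 in lymphomas. That is a difference of -6.06 (SE 0.35, adjusted p = 0.000252), or 66.6-fold. Rag1, a subunit of the recombinase, stood at 11.09, 11.16 and 11.45 against 6.18, 5.99 and 3.58 (difference -5.98, SE 0.89, adjusted p = 0.00373). Tumor replicate 3 was near the floor for Rag1, more than 2 units below the other tumors. Its partner Rag2 was at 6.04, 5.66 and 6.50 in normal samples and at the floor in all 3 tumors, a fall of at least 6.71-fold.

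Satb1, a chromatin organiser of thymocytes, fell from 11.87, 11.82 and 11.97 to 7.17, 6.80 and 7.84, and its difference of -4.62 had a SE of 0.36 (adjusted p = 0.000477). Arpp21, a double-positive marker, had levels of 8.59, 8.38 and 8.68 in normal samples and 4.53, 4.30 and 4.46 in tumors. Bcl2l1, which encodes the survival protein BCL-xL, was at 9.12, 9.22 and 9.03 against 5.17, 5.16 and 5.32, a difference of -3.90 with little spread in either group. Cd8a, a chain of the CD8 coreceptor, had the widest spread of these: 12.08, 11.98 and 12.14 against 8.78, 9.46 and 6.48. Its adjusted p of 0.0152 became 0.0502 in a fit of these 2 groups alone. Cd4 had levels of 10.78, 10.72 and 10.74 in normal samples and 9.26, 8.52 and 9.03 in tumors, so both coreceptors were lower and still far above the floor. Cd8b1 (-2.59, adjusted p = 0.0652), Themis (-0.87) and Tcf12 (0.23) did not pass.

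Of the 18 genes of early double-negative cells, 1 rose, 1 fell and 16 did not pass, with a median of -0.04. The fall was Ptcra, the pre-T cell receptor α chain, at 5.86, 6.36 and 6.32 against 4.41, 4.60 and 4.99. The rise was Lmo2, an oncogene of T cell leukemia, at 6.12, 5.58 and 6.05 against 8.64, 8.98 and 6.79. The Lmo2 call did not hold in 8 of 16 alternatives, with an adjusted p of up to 0.153. Kit (-0.46, adjusted p = 0.0933) and Il2ra (-1.59) did not pass. Of the 15 genes of mature single-positive cells, 4 fell (26.7%) and 0 rose (median -0.14). The share called lower was 12.0% over all genes and 21.0% to 27.0% in length groups of genes at a level of at least 6. The 4 were Ctsw (-1.79), Ccr7 (-1.78), Itgae (-1.51) and Foxp3 (-0.84). Ccr7, the receptor that guides mature cells, was at 8.68, 8.74 and 8.77 against 7.36, 7.11 and 6.38.

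**Figure D1:**
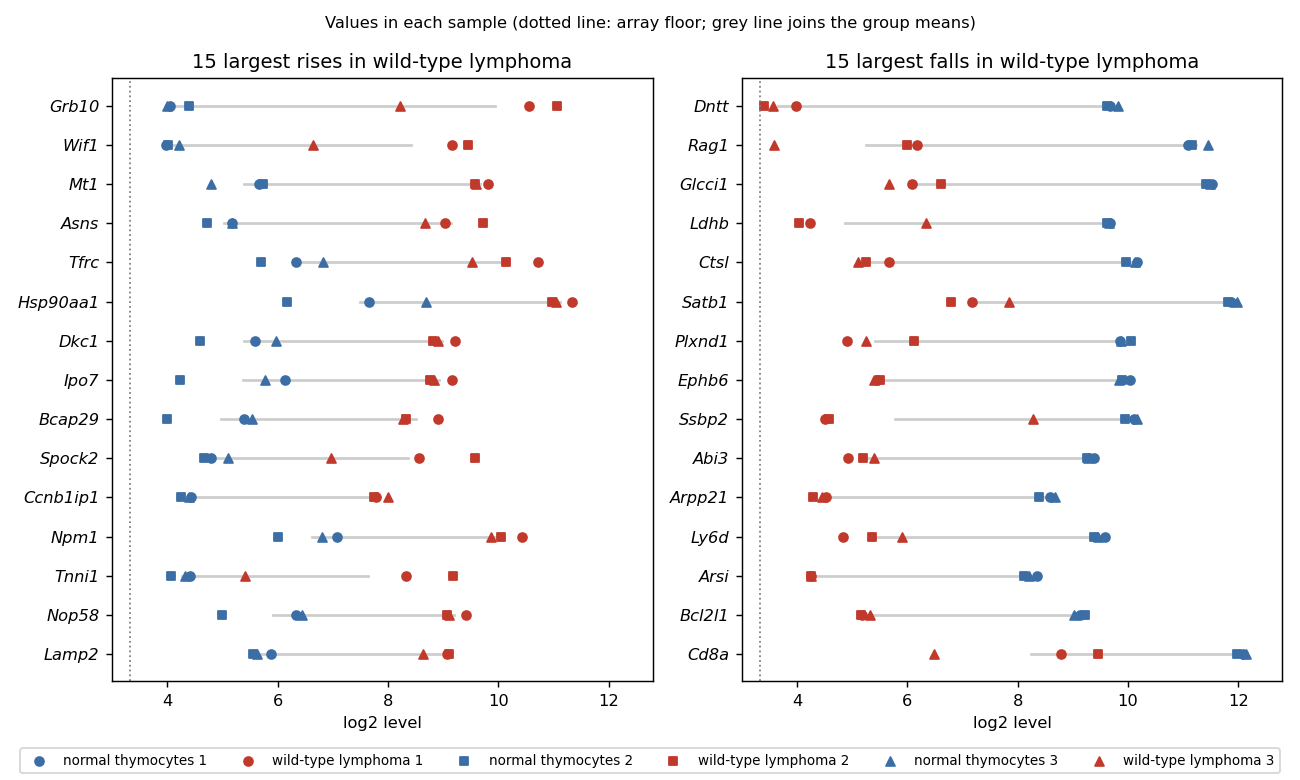
Log2 level (horizontal axis) of the 15 largest rises and the 15 largest falls among named genes with no overlap between groups; each point is 1 sample, the grey line joins the group means and the dotted line is the array floor of 3.32. Tumor replicate 3 (red triangles) stands apart for Grb10, Wif1, Tnni1, Rag1, Ssbp2 and Cd8a, and normal replicate 2 (blue squares) is lowest for Hsp90aa1, Dkc1, Ipo7, Npm1 and Nop58.

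Of 22 transcription factors of the T lineage, 11 fell and 0 rose, with a median of -1.21. Besides Satb1, Ets2 was at 10.28, 10.44 and 10.45 against 7.86, 7.90 and 7.0. Bcl11b, which commits cells to the T lineage, was at 8.90, 8.93 and 8.81 against 6.81, 6.90 and 7.47, and Bach2 fell by 1.65. Gata3 (-0.63, adjusted p = 0.277) did not pass. This count leaned on single samples, since it was 5 without normal replicate 2 and 6 without tumor replicate 1.

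The T cell receptor complex fell with them: 9 of 16 genes were lower and 0 higher (median -1.3). Cd247, the ζ chain, was at 8.08, 7.78 and 7.61 against 6.01, 5.59 and 6.65. Cd3g, another chain, fell by only 0.80, from 11.72, 11.51 and 11.69 to 10.86, 10.72 and 10.94, with no overlap. Cd5 (-0.92, adjusted p = 0.461) and Cd28 (-0.18) did not pass. Downstream, 7 of 24 kinases and adaptors fell (29.2%) and 4 rose (16.7%), beside 12.0% and 9.67% over all genes (median -0.57). Lat, the scaffold of the receptor, was at 11.33, 11.38 and 11.34 against 9.55, 10.08 and 10.27, and Plcg1 (-1.18) and Nfatc3 (-1.07) also fell. The counts were 3 lower without normal replicate 2 and 0 higher without tumor replicate 1 or 2. Of 16 genes that answer receptor signals, 3 fell (18.8%, beside 12.0% over all genes) and 0 rose. Their 18.8% was below the 21.0% to 27.0% called lower among genes at a level of at least 6, grouped by length. Among the 3 were Dusp5, a phosphatase (-0.93), and Nr4a1 (-1.17). The adjusted p of Nr4a1 was 0.0134 and reached 0.0643 in a fit of the 2 groups alone.

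Within the Notch pathway, which directs early thymocytes to the T lineage, 6 of 17 genes fell and 1 rose (median -0.62). The receptor Notch1 was at 8.98, 9.09 and 9.09 in normal thymocytes and 6.44, 6.54 and 6.60 in tumors, a 5.76-fold fall (adjusted p = 0.00886). Notch3 fell by 1.40, the coactivator Maml1 by 1.38 and the γ-secretase subunit Ncstn by 0.80. Among the usual target genes, Hes1 (-0.37), Nrarp (-0.64) and Dtx1 (-1.50, adjusted p = 0.085) did not pass.

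Receptors for homing and cytokines shared the direction. Of 14 homing and egress genes, 7 fell and 1 rose (median -1.17), or 4 lower when any 1 normal replicate was left out. Plxnd1, a semaphorin receptor of double-positive cells, fell from 9.85, 10.05 and 9.87 to 4.91, 6.12 and 5.25 (-4.50, adjusted p = 0.000842). Among 23 cytokine receptor and JAK-STAT genes, 6 fell (26.1%, beside 12.0% over all genes) and 1 rose (4.3%, beside 9.67%). The 26.1% lay within the 21.0% to 27.0% called lower among genes at a level of at least 6, grouped by length. Both chains of the interferon γ receptor were among the 6. Ifngr1 was at 10.30, 9.87 and 10.06 against 7.18, 7.31 and 7.22 (difference -2.84, SE 0.17, adjusted p = 0.000252), and Ifngr2 at 8.42, 8.16 and 8.45 against 6.68, 6.64 and 6.79. Ifnar1, a chain of the type I interferon receptor, fell by 1.10. Il7r (-0.06, adjusted p = 1) did not pass, and its normal samples spread from 4.73 to 6.54.

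Interferon-stimulated genes were lower in 13 of 21 cases and higher in 0 (median -0.94). Rtp4 was at 7.14, 6.86 and 6.04 in normal thymocytes and 3.87, 3.75 and 3.75 in tumors, a 7.40-fold fall. Irf7, a factor that amplifies the interferon response, was at 7.85, 7.46 and 6.90 against 5.27, 5.28 and 5.10. Zbp1 fell by 1.89, Usp18 by 1.74 and Irf9 by 1.49, and for each of these genes all tumors lay below all normal samples. The count was 7 when probe sets with a mean level under 5 were left out, a setting that tests fewer of these dim genes.

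MHC class I genes, whose products show peptides to CD8 T cells, fell in 10 of 18 cases and rose in 3 (median -0.79). H2-T10, listed as a pseudogene by RefSeq and therefore outside the ranking of largest falls, was at 10.33, 10.27 and 10.15 against 5.74, 5.76 and 5.02 (-4.74, adjusted p = 0.0006). H2-Q2 was at 10.39, 10.34 and 10.39 against 7.23, 7.92 and 7.09. Class I genes are near-copies of each other, so a probe set can read more than 1 of them. Of the loading machinery, the peptide pump gene Tap1 was at 8.55, 8.29 and 8.31 against 6.61, 7.19 and 7.26, and Tapbp fell by 1.58. The light chain gene B2m (-0.17, adjusted p = 0.461) did not pass. The 3 that rose work in the endoplasmic reticulum: the chaperone Canx (2.33), the peptide trimmer Erap1 (1.90) and the disulfide isomerase Pdia3 (1.05). Most genes of this list lie on chromosome 17, where the tumors also differed from each other, as described below.

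Among genes of the MYC and MAX network, 5 of 13 fell and 1 rose (median -0.16). The mouse Myc probe set was at 7.79, 8.13 and 7.77 in normal thymocytes and 5.27, 5.62 and 4.83 in tumors (difference -2.66, SE 0.23, adjusted p = 0.000728), a 6.31-fold fall in tumors that carry a MYC transgene. The sources used here do not say whether this probe set also reads the transgene, so the level does not check the transgene. Of the repressor partners of MAX, 3 Mxd genes fell: Mxd4 was at 9.05, 9.14 and 9.09 against 6.86, 7.39 and 7.66, Mxd3 fell by 1.10 and Mxd1 by 0.90. Max (-0.01) and another repressor partner, Mnt (-0.16), did not pass. The 1 rise, Mga (1.72), another MAX partner, had an adjusted p of 0.0235 that reached 0.079 without some samples.

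Ribosome assembly genes rose together. Of 65 nucleolar assembly genes, 53 rose and 1 fell, with a median of 1.08 (9.67% and 12.0% over all genes). Npm1, a chaperone of the nucleolus, was at 7.08, 6.0 and 6.80 in normal thymocytes and 10.42, 10.05 and 9.86 in tumors (difference 3.48, SE 0.33, adjusted p = 0.000858), or 11.2-fold. Ncl, nucleolin, was at 7.26, 5.77 and 7.35 against 10.32, 9.83 and 9.82. Dkc1, the enzyme that places pseudouridine in ribosomal RNA, was at 5.59, 4.59 and 5.97 against 9.22, 8.82 and 8.91. Nop58 (3.28), a core protein of the small nucleolar particles that guide methylation, and Gnl3 (3.12) followed. All 3 tumors lay above all 3 normal samples for these 5 genes, as for all 1928 genes called higher. For these 5 the tumors were also closer to each other than the normal samples were. This was common, since the tumor SD was the larger for only 39.2% of the genes called higher. The 1 fall was Emg1, a ribosomal RNA methyltransferase (-0.60). Its adjusted p of 0.0258 reached 0.0816 without some samples. Leaving out tumor replicate 1 left 44 genes called higher, and leaving out normal replicate 2 left 47.

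Of 15 genes of the RNA polymerase I machinery, which transcribes ribosomal RNA, 6 rose and 1 fell (median 0.4). Polr1b, a catalytic subunit, was at 7.13, 7.21 and 7.36 against 8.74, 8.96 and 9.13. Cytosolic ribosomal protein genes moved by less: 22 of 60 rose and 0 fell, with a median of 0.36. Rpl5, the largest rise among them, went from 9.49, 9.40 and 9.68 to 11.35, 11.23 and 11.19 (1.73), whereas Rplp0 differed by 0.30. Ribosomal protein genes have many processed copies in the genome, which a probe set may also read. Of 77 mitochondrial ribosomal proteins, 9 were higher (11.7%, near the 9.67% over all genes) and 2 lower (2.6%, beside 12.0%), with a median of 0.17. The 9 became 3 without tumor replicate 1, 4 without normal replicate 2 and 5 without normal replicate 1 or tumor replicate 3.

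Further steps of protein synthesis rose as well. Among 31 translation factors, 15 rose and 2 fell (median 0.54). Eif3e, a subunit of initiation factor 3, was at 6.87, 6.93 and 6.80 against 9.68, 9.41 and 9.40, and Eif1a, which helps choose the start codon, at 5.04, 5.08 and 5.04 against 7.76, 7.62 and 7.32. Of 18 cytosolic tRNA synthetases, 9 rose and 0 fell (median 0.82), led by Eprs (2.62), Lars (2.06) and Rars (2.01). The counts for the synthetases were 9 or more in all 16 alternatives. Chaperones gave the highest median of the growth lists, 1.43, with 23 of 28 higher and 0 lower. Hspd1, the mitochondrial chaperonin, was at 7.44, 6.86 and 7.58 against 10.62, 10.20 and 10.32, an 8.49-fold rise. Hsp90aa1, a cytosolic chaperone, was at 7.65, 6.17 and 8.69 against 11.34, 10.98 and 11.05. Its normal samples covered more than 2 units, and its tumors less than 1.

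Nuclear transport genes rose in 32 of 44 cases and fell in 1 (median 0.86). Ipo7, an importin for ribosomal proteins, was at 6.13, 4.24 and 5.77 in normal thymocytes and 9.16, 8.77 and 8.83 in tumors (difference 3.54, SE 0.49, adjusted p = 0.00286), or 11.6-fold. Xpo1, the main export receptor, rose by 2.33, Kpna3, an importin α, by 2.49 and Cse1l, which returns importin α to the cytoplasm, by 2.14.

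Because MYC binds E-boxes, the letters CACGTG, which read the same on both strands, were searched in RefSeq promoters of assembly GRCm38.p6, from 250 bases before to 50 after the first listed start of 15614 genes. The stretches below come from the largest rises of the nucleolar, chaperone and transport lists whose promoter holds CACGTG before the start. Each is 60 bases, 5′ to 3′ on the gene's strand, with the E-box in capitals, and is shown to let the element be seen in its setting.
Ipo7, chr7:110018151-110018210, + strand: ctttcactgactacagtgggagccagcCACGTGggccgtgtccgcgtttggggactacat
Hspd1, chr1:55088291-55088350, - strand: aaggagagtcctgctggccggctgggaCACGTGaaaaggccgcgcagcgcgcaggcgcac
Xpot, chr10:121626523-121626582, - strand: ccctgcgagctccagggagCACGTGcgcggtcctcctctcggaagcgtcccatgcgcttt
Utp18, chr11:93885767-93885826, - strand: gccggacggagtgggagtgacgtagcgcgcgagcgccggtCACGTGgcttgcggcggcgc
Nol11, chr11:107189392-107189451, - strand: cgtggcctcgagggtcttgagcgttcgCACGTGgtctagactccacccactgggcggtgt
Nup93, chr8:94214362-94214421, + strand: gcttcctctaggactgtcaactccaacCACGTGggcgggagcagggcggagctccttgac

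These 6 genes differed by 3.54, 3.09, 1.88, 1.77, 1.34 and 1.15 in the order of the lines. CACGTG was in 14.0% of the promoters of genes called higher (219 of 1562, 95% exact binomial interval 12.3% to 15.8%), in 10.1% of those called lower (198 of 1956) and in 7.4% of those not called. Over all 15614 genes the share was 8.4%, and over the 5264 with a mean level of at least 6 it was 11.7%, a share that thus also rises with level. Among list promoters it was in 11 of 54 nucleolar genes (20.4%, interval 10.6% to 33.5%) and 2 of 23 chaperones (8.7%). CAGCTG, the E-box of E proteins, was in 11% of higher, 16.0% of lower and 15.9% of all promoters. The ETS core CCGGAA was in 35.0% of higher and 28.3% of lower promoters, beside 34.7% in genes at a level of at least 6. TGACGTCA, the cAMP response element, was in 3.9%, 3.1% and 2.5% of higher, lower and all promoters. All 4 were read on both strands. A match is a description of letters, not a bound site.

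Supply of building blocks rose with synthesis. Of 31 nucleotide and one-carbon genes, 21 rose and 2 fell (median 0.82). Gmps, the last step of GMP synthesis, was at 7.09, 6.18 and 7.06 against 9.37, 8.96 and 8.93. Ppat (1.80), the first committed enzyme of purine synthesis, and Cad (1.35), the same for pyrimidines, rose with it. Rrm2, a subunit of ribonucleotide reductase, went the other way (-0.68, adjusted p = 0.0498, up to 0.145 in alternatives). Asns, asparagine synthetase, was the fourth-largest rise of all genes, at 5.18, 4.72 and 5.18 against 9.03, 9.73 and 8.68 (difference 4.12, SE 0.31, adjusted p = 0.000462), or 17.4-fold. Of the 16 amino acid response genes 4 rose (25.0%, beside 9.67% over all genes) and 0 fell. Besides Asns these were Psat1 (1.50), Stc2 (1.27) and Phgdh (0.65). Ddit3 (-0.12), Trib3 (-0.13) and Chac1 (-0.09) did not pass, nor did Slc7a11, the cystine carrier, which differed by -2.07 (adjusted p = 0.0638). Of 14 amino acid transporters, 5 rose and 1 fell, or 3 higher without normal replicate 1 or normal replicate 3. The fall, Slc38a2 (-0.83, adjusted p = 0.0237), was not called when any 1 of the 6 samples was left out, with an adjusted p of up to 0.0711. Slc7a1, the arginine carrier, was at 7.08, 7.33 and 7.34 against 8.76, 9.16 and 9.15, and Slc7a5, for large neutral amino acids, rose by 1.58.

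Iron and metal genes held single large rises. Tfrc, the transferrin receptor, was at 6.34, 5.70 and 6.83 against 10.72, 10.15 and 9.53 (14.3-fold). Of 12 iron genes 3 were higher (25.0%, beside 9.67% over all genes) and 1 lower (8.3%, beside 12.0%). Mt1, a metallothionein that binds zinc and copper, was at 5.66, 5.74 and 4.79 against 9.81, 9.57 and 9.60 (19.2-fold). Its neighbour Mt2 differed by 2.11 and did not pass (adjusted p = 0.117), with tumor values of 7.09, 7.09 and 5.93. In polyamine synthesis 2 of 8 genes rose (25.0%, beside 9.67% over all genes) and 1 fell (12.5%, beside 12.0%). The rises were Srm, which makes spermidine (1.58), and Odc1, the first enzyme (1.15).

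Glycolysis and pentose phosphate genes rose in 11 of 27 cases and fell in 1 (median 0.3). Tpi1 was at 8.89, 8.89 and 8.82 against 10.11, 10.23 and 10.21, and Pgam1 (1.29) and Hk2 (1.23) rose too. The 1 fall was the deepest in the metabolic lists: Ldhb, a subunit of lactate dehydrogenase, went from 9.68, 9.62 and 9.66 to 4.24, 4.03 and 6.34 (-4.78, adjusted p = 0.00409). Its counterpart Ldha rose by 0.59, from 10.85, 10.93 and 10.98 to 11.56, 11.53 and 11.44, beside the 27.5-fold fall of the B subunit. Of 82 oxidative phosphorylation genes, 12 were higher (14.6%, beside 9.67% over all genes) and 4 lower (4.9%, beside 12.0%). Their median was -0.02, and 4 were higher without tumor replicate 1 or normal replicate 1. Mitochondrial import and genome upkeep had 10 of 23 higher and 1 lower (median 0.52), with Tomm70a, an import receptor, at 2.22. Of 24 sterol and fatty acid genes, 7 rose (29.2%, beside 9.67% over all genes) and 2 fell (8.3%, beside 12.0%). Idi1 (2.58), Elovl6 (1.80) and Fasn (1.0) were higher, while Srebf1, which encodes their regulator SREBP-1, fell by 1.12. Proteasome subunits rose in 10 of 39 cases (25.6%, beside 9.67% over all genes) and fell in 2 (5.1%, beside 12.0%). The 2 included Psmb9, an interferon-inducible subunit (-0.90). The 29.2% and 25.6% called higher lay within the 10.7% to 30.2% of genes at a level of at least 6, grouped by length.

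**Figure D2:**
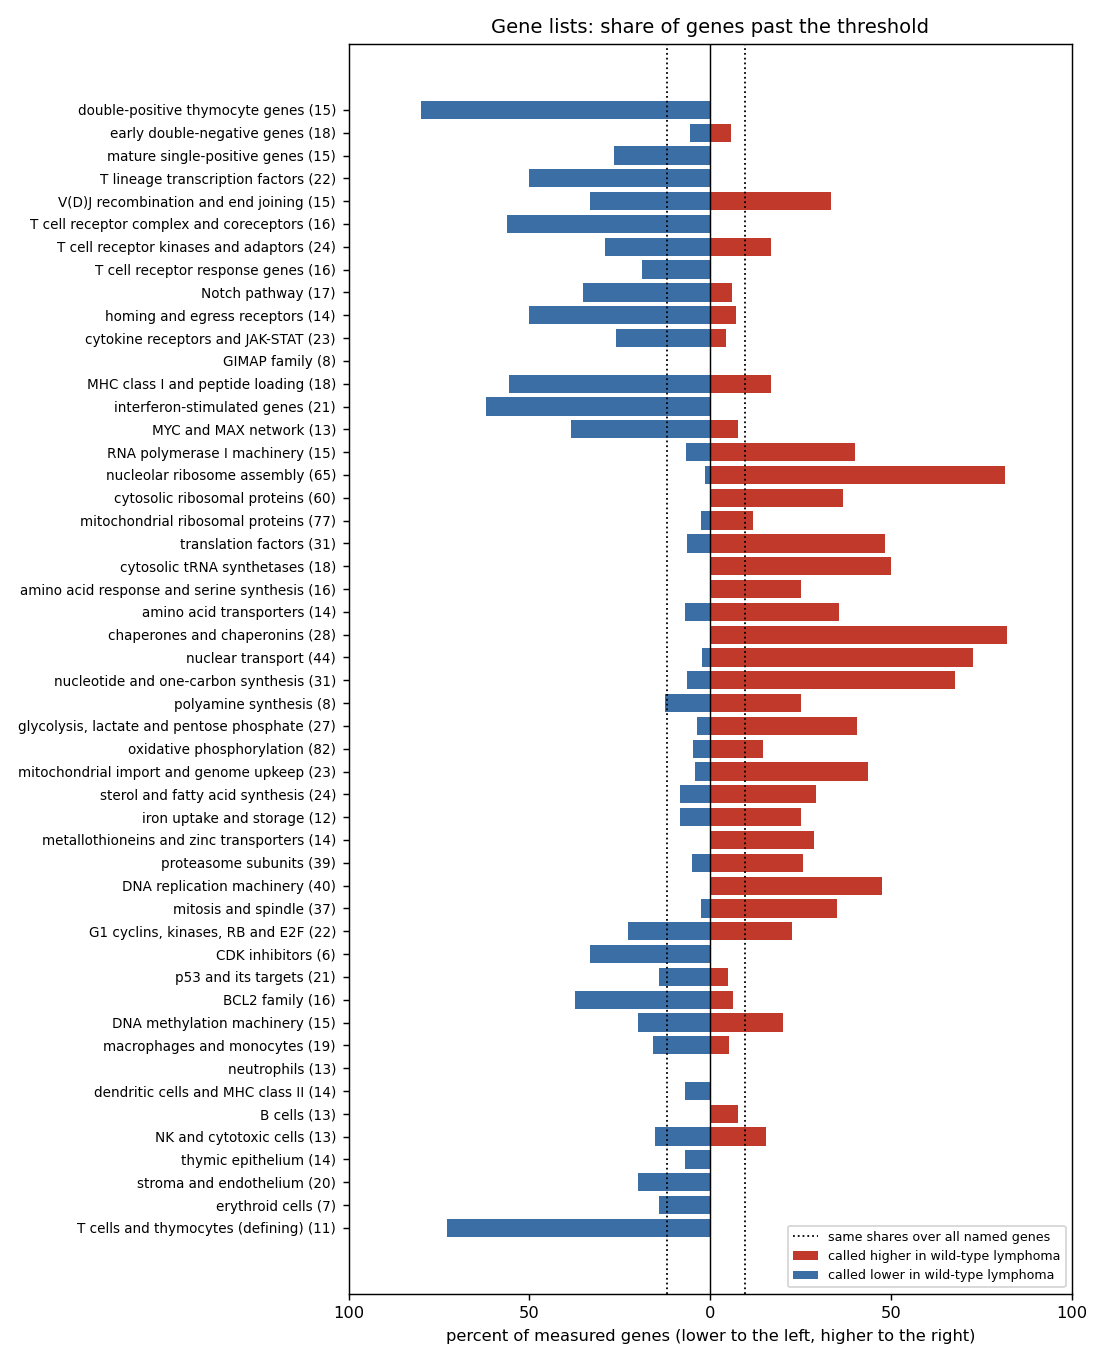
Share of the measured genes of each list (number in brackets) called higher (red, to the right) or lower (blue, to the left) in wild-type lymphomas. The dotted lines mark the same shares over all genes, those at the floor included, 9.67% and 12.0%. The chaperones reach furthest to the right (23 of 28) and the double-positive genes furthest to the left (12 of 15), and the MYC and MAX network extends mostly to the left (5 of 13).

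Cell cycle genes did not move as 1 block. Of 40 DNA replication genes 19 rose and 0 fell (median 0.54). Pola1, the catalytic subunit of polymerase α, was at 4.73, 4.36 and 5.62 against 7.86, 7.32 and 7.29, and Orc2, of the origin recognition complex, at 5.51, 4.88 and 5.74 against 8.01, 7.53 and 7.52. The helicase and clamp genes that are usual marks of S phase did not pass: Mcm2 differed by -0.18, Mcm3 by -0.03, Mcm5 by -0.12, Mcm7 by -0.08 and Pcna by 0.07. Pcna was at 10.54, 10.48 and 10.60 in normal thymocytes and 10.70, 10.52 and 10.60 in tumors, and the groups overlapped. Of 37 mitosis genes 13 rose and 1 fell (median 0.47), among them Bub1, a checkpoint kinase, at 4.41, 3.62 and 5.03 against 7.41, 6.70 and 6.78, and Kif11, a spindle motor, at 5.80, 4.70 and 6.46 against 8.45, 7.93 and 7.88. Without tumor replicate 1 only 3 mitosis genes were called higher, and without normal replicate 2 only 7. Normal replicate 2 was the lowest normal sample for 12 of the 13 mitosis genes and 15 of the 19 replication genes.

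Among 22 G1 regulators 5 rose and 5 fell, 22.7% each, beside 9.67% and 12.0% over all genes. Ccnd3, cyclin D3, which drives the division of thymocytes after β-selection, was at 10.85, 10.69 and 10.76 against 6.76, 7.61 and 7.85 (difference -3.36, SE 0.32, adjusted p = 0.000902). Ccnd2 (0.41, adjusted p = 0.229) did not pass. E2f2, an activator E2F, fell by 1.95 and Rbl2, a pocket protein of resting cells, by 0.96, while the pocket protein Rbl1 rose by 1.21 and the E2F partner Tfdp1 by 0.97. Of 6 CDK inhibitors 2 fell and 0 rose: Cdkn2d was at 8.69, 8.52 and 8.35 against 6.45, 6.46 and 6.13, and Cdkn1b at 9.16, 9.06 and 9.17 against 7.45, 7.32 and 7.38. Cdkn2a (-0.13, adjusted p = 0.568), which encodes p16 and ARF, did not pass and lay between 5.01 and 5.45 in all 6 samples.

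Of 16 BCL2 family genes 6 fell and 1 rose (median -0.38). Besides Bcl2l1, the survival genes Bcl2 (-0.97) and Mcl1 (-0.95) fell. Mcl1 remained high, at 10.13, 10.22 and 10.33 against 9.36, 9.35 and 9.12. The killers Bmf and Bcl2l11, which encodes BIM, fell from 7.47, 7.57 and 7.40 to 4.84, 5.17 and 5.39 and from 7.91, 7.77 and 7.99 to 6.14, 6.23 and 5.88, and Bid rose by 0.62. Among 21 p53 targets 3 fell (14.3%, beside 12.0% over all genes) and 1 rose (4.8%, beside 9.67%), with a median of -0.11. The list as a whole was thus near the shares over all genes. Fas, the death receptor, was at 6.15, 6.07 and 6.09 against 4.11, 3.68 and 4.02, and Btg2 (-2.05) and Gadd45a (-1.05) fell with it. Ccng1 rose by 2.05, and Mdm2, the main feedback target, differed by -0.0045 (adjusted p = 1).

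Of 15 DNA methylation genes 3 were higher and 3 lower. The lower count was 1 without normal replicate 1 or 2 or without tumor replicate 1 or 2. Hells, a remodeler that helps methyltransferases reach their sites, was at 5.60, 4.73 and 6.18 against 8.79, 8.26 and 8.05 (difference 2.86, SE 0.39, adjusted p = 0.00276). Mbd1 fell by 0.59. Dnmt1 (0.13, adjusted p = 0.152), Dnmt3a (-0.66, 0.269) and Dnmt3b (0.27, 0.106) did not pass. Dnmt3a was at 7.90, 7.82 and 7.84 in normal thymocytes and at 6.83, 6.69 and 8.07 in tumors, so tumor replicate 3 lay above the normal samples and the others below them.

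Of the largest changes outside these lists, Grb10, an imprinted adaptor that binds insulin and IGF1 receptors, led the rises. Its levels were 4.05, 4.40 and 4.0 in normal thymocytes and 10.57, 11.06 and 8.21 in tumors (difference 5.80, SE 1.09, adjusted p = 0.00955), or 55.6-fold. Wif1, a secreted Wnt inhibitor, was at 3.98, 4.02 and 4.21 against 9.16, 9.44 and 6.65. Spock2, a matrix proteoglycan, was at 4.79, 4.67 and 5.10 against 8.56, 9.57 and 6.97. Tnni1, a slow-muscle troponin, was at 4.42, 4.07 and 4.32 against 8.32, 9.18 and 5.41, and its adjusted p of 0.0333 reached 0.121 in alternatives. For these 4 genes tumor replicate 3 rose least. Lamp2, a lysosomal membrane protein, was even across tumors, at 5.88, 5.56 and 5.62 against 9.08, 9.11 and 8.63. Bcap29, of the endoplasmic reticulum (3.53), and Ccnb1ip1, a ubiquitin ligase known from meiosis (3.49), complete the 15 largest rises together with genes given above.

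Among the falls, Glcci1, known as a transcript that glucocorticoids induce in thymocytes, was at 11.52, 11.41 and 11.48 against 6.09, 6.61 and 5.67 (40.8-fold). Ctsl, cathepsin L, was at 10.16, 9.96 and 10.14 against 5.67, 5.25 and 5.10. Ephb6, a kinase-dead ephrin receptor of thymocytes, was at 10.04, 9.89 and 9.85 against 5.45, 5.51 and 5.40, and Arsi, a sulfatase, at 8.35, 8.11 and 8.21 against 4.26 in each tumor. The 3 tumors lay close together for each of these. Ly6d (-4.11), a surface antigen first described on thymocytes, and Abi3 (-4.14), an actin regulator, fell too. Ssbp2 was at 10.11, 9.94 and 10.16 against 4.50, 4.58 and 8.27, so tumor replicate 3 kept most of its level, and the adjusted p of 0.0277 reached 0.0953 in alternatives. Besides Rag2, 13 genes fell to the floor in all 3 tumors. Leaving out the T cell receptor V segments Trdv2-2 (-1.70) and Trav14-1 (-1.29) and 1 miRNA among them, the largest of these falls were those of Xrra1 (5.04, 4.71 and 4.57 in normal samples) and Akr1c18 (4.71, 4.56 and 4.58). Against the floor these are falls of at least 2.73-fold and at least 2.46-fold. Of the 3021 genes at the floor in all normal samples, limma called 0 higher, and 12 were higher at an unadjusted p under 0.05. A second probe set of Scn2a, not the one read for that gene, was at the floor in all normal samples and at 5.25, 5.65 and 3.93 in tumors (difference 1.62, adjusted p = 0.0227).

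Of these 30 largest changes, 27 were called in all 16 alternatives, the exceptions being Tnni1, Ssbp2 and Cd8a. Between the wild-type and the Dnmt3b-deficient lymphomas limma called 0 of the 30, with 7 at an unadjusted p under 0.05. It called only 2 of all 28939 probe sets in that comparison, so the 0 does not show that the genotypes share these changes. The differences, Dnmt3b-deficient minus wild-type, ran from -3.37 for Wif1 to 1.35 for Ssbp2.

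The 3 lymphomas were not alike. Over 16325 genes above the floor, 202 had an SD over 1 among the tumors and 28 among the normal samples, while the median SD was 0.151 and 0.146. Each tumor was set against the mean of the other 2, over genes where those 2 differed by less than 1 unit. Tumor replicate 3 was at least 2 units below that mean for 69 genes and at least 2 above it for 20. Replicates 1 and 2 had 3 and 11 such genes in either direction. The 8 genes with the largest SD include Gzma, a granzyme, at 5.92, 4.08 and 9.73 in tumors 1 to 3 and 6.04, 6.28 and 6.01 in normal samples. Gfi1b, a repressor of blood progenitors, was at 5.49, 5.25 and 9.48, beside 5.57, 5.81 and 5.67. Lcn2, a neutrophil granule protein, was at 8.74, 9.01 and 4.31, and Lyz2, lysozyme of myeloid cells, at 9.71, 10.41 and 6.23, so the normal samples (6.51 to 7.46 and 7.55 to 8.09) lay between the tumors. Clec4e, a receptor of macrophages, was at the floor in all normal samples and in tumor 3, and at 5.14 and 7.99 in tumors 1 and 2. Cfb, Lyz1 and Pla2g7 were likewise high in tumors 1 and 2 and low in tumor 3. None of the 8 was called.

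Marker lists of other cells moved with this split. The mean of 13 neutrophil markers was 4.67, 4.91 and 5.05 in normal thymocytes and 6.0, 5.93 and 4.06 in tumors 1 to 3, and limma called 0 of the 13 (0 also at an unadjusted p under 0.05). S100a8, a defining marker, was at 4.91, 5.57 and 5.49 against 7.62, 7.43 and 3.76. The mean of 19 macrophage markers was 4.87, 4.94 and 4.79 against 5.19, 5.48 and 4.48, with Itgam higher (1.14) and C1qa (-1.07), C1qb and C1qc lower. The means of the lists for dendritic cells, B cells, NK cells, thymic epithelium, stroma and erythroid cells lay between 4.0 and 5.69 in all 6 samples. Of their 81 genes, 3 were called higher and 9 lower, beside 9.67% and 12.0% over all genes. The part of such cells in the genes above was not tested. Of 4 sex-linked genes 1 was called higher, Eif2s3y (1.45, limma adjusted p = 0.0401, up to 0.131 in alternatives). The mean of these 4 was 4.97, 4.59 and 5.17 in normal thymocytes and 5.89, 5.52 and 5.72 in tumors. Whether the groups differ in sex was not tested.

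**Figure D3:**
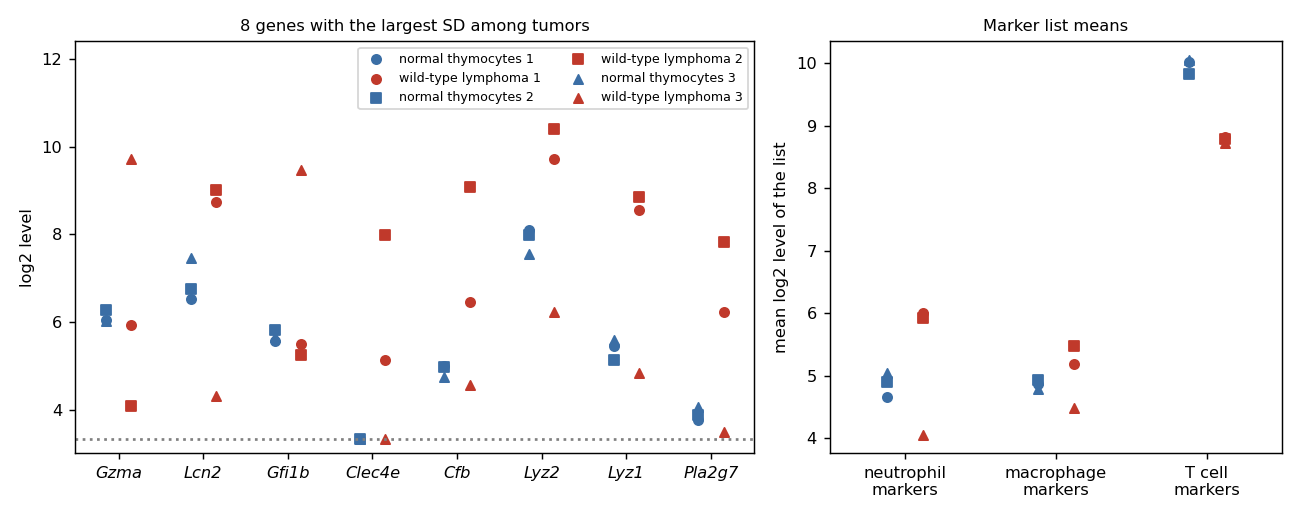
Left, log2 level of the 8 genes with the largest SD among tumors, with normal thymocytes in blue and wild-type lymphomas in red; right, mean log2 level of the marker lists in each sample. Tumor replicate 3 (red triangle) is below the other tumors for neutrophil markers (4.06 against 6.0 and 5.93), while the T cell marker means of the tumors lie within 8.72 to 8.82.

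Chromosome 17 also set the tumors apart. Over its 344 genes with a level of at least 6, the median difference from the other 2 tumors was -0.24 in tumor 1, 0.25 in tumor 2 and 0.03 in tumor 3. In tumor 2, 84.3% of these genes lay above the other tumors' mean, and in tumor 1, 17.7%. On the other 19 chromosomes the medians stayed between -0.07 and 0.10 in the 3 tumors, and in the normal samples all chromosomes lay between -0.11 and 0.09. Chromosome 17 was also cut into sixths of equal gene number, with each tumor set against the mean of the other 2. The median was above 0 for tumor 2 in each sixth (0.14 to 0.40) and below 0 for tumor 1 in each (-0.44 to -0.16). Tumor 3 ran from -0.13 in the first sixth to 0.36 in the last but one, where it was higher than tumor 2 (0.14). H2-T10, H2-Q2, Tap1, Satb1 and Ccnd3 lie on this chromosome. Against the mean of the normal samples, the median over its 344 genes was -0.341, 0.005 and -0.153 in tumors 1 to 3. Whether copy number moved with these medians was not tested.

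**Figure D4:**
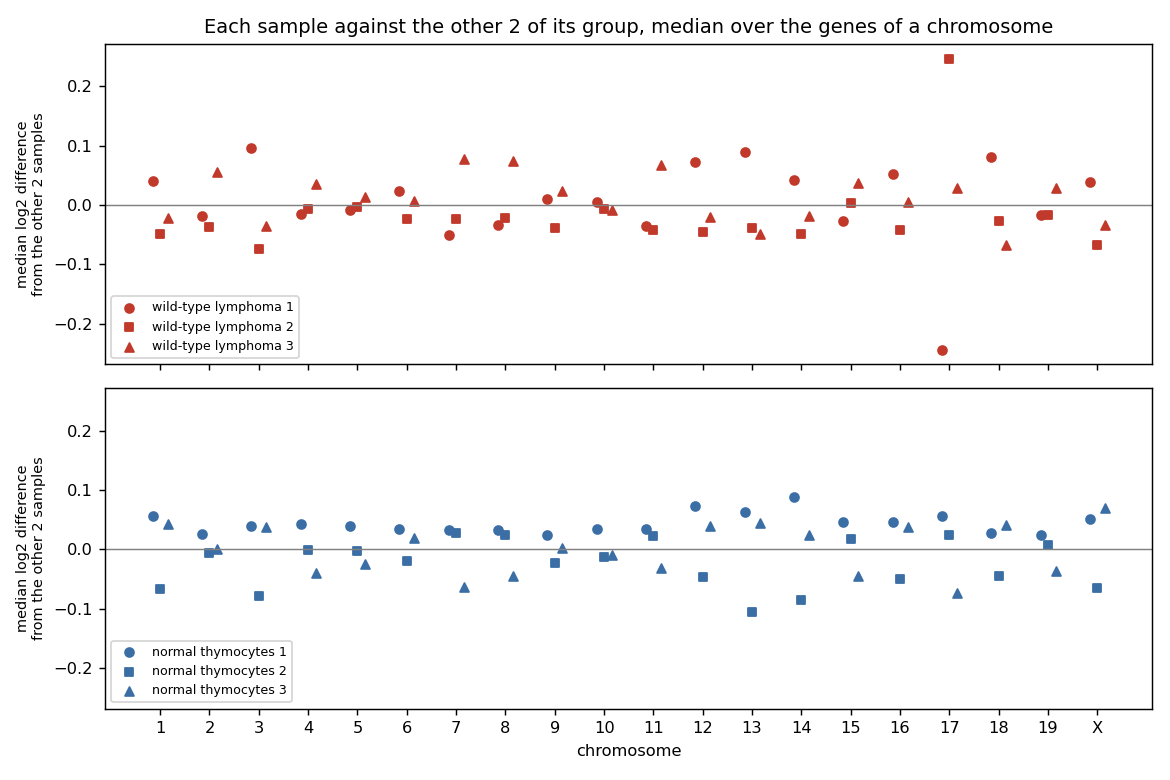
Median log2 difference of each sample from the other 2 of its group, per chromosome, over genes with a level of at least 6; wild-type lymphomas above, normal thymocytes below. On chromosome 17 tumor 1 is at -0.24 and tumor 2 at 0.25, and no other point in either panel is beyond 0.11 in size.

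Sample differences also touched the called genes as a whole. Normal replicate 2 was the lowest normal sample for 60.9% of the genes called higher, against 25.6% of those called lower. The median level of the genes called higher was 6.14, 5.87 and 6.23 in normal thymocytes and 7.49, 7.29 and 7.29 in tumors. Without normal replicate 2, 3964 probe sets were called, and without tumor replicate 1, 3664. Gene length moved along the same axis. Over 6453 genes with a level of at least 6, 10.7% of the 1291 shortest (up to 7.6 kb) were called higher and 27.0% lower, beside 27.8% and 21.1% of the 1291 longest (from 58.8 kb). The median difference went from -0.23 in the shortest to 0.12 in the longest, and normal replicate 2 differed from the other normal samples by 0.06 in the shortest and -0.08 in the longest. Normal replicate 3 differed by -0.1 in the shortest and 0.08 in the longest. The part of RNA quality or length in the calls was not tested.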

How the data were processed

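Total RNA (300 ng per sample) was hybridised to Affymetrix whole-transcript arrays, 1 for each of the 11 samples, per the labels' protocols. The deposited values are log2 levels. Partek and RMA appear in the submitters' processing notes, with no version and no order of steps. No value is below log2 of 10, and 23.6% to 25.7% of each array lies at this floor. The medians of the arrays ran from 4.55 to 4.62, and the values were used without rescaling. No source used here names the genome build of the array annotation.

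Of 35512 rows, 6573 with the lowest ID numbers and no gene were taken for controls from their IDs alone and left out. Of the other 28939, 21789 have 1 symbol in the platform annotation, 1621 several and 5529 none. Symbols were set against RefSeq (GRCm38.p6), and 0 were updated. For the 999 genes on several probe sets, the one with the highest mean over the 11 arrays was used, and 1 of them had probe sets called in opposite directions. limma 3.58.1 in R 4.3.3 fitted 1 mean per group to all 4 groups (lmFit, eBayes). Its prior degrees of freedom were 0.46, beside 7 residual. The fit was tested on simulated data. All adjusted p-values are limma's.

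Genes named are, per direction, the 15 largest called differences with no overlap between groups (predicted genes, small RNAs, pseudogenes and receptor segments left out), up to 8 falls to the floor, the 8 largest SDs among tumors, up to 5 called members per list and direction with up to 3 others, and Myc and the Dnmt genes. A few more members named as not passing, or with neighbouring roles, were chosen after their values were seen. The 51 lists hold 1124 measured genes, and 70 list names, among them Lck, Tcf7, Cdkn1a and Trp53, had no probe set of 1 symbol. Members and lists were chosen with earlier results of these data known, so list counts are described without a test. The 16 alternatives left out each sample, rescaled the arrays, changed the moderation, filter, probe set rule or groups fitted, or added a replicate block. The analyses of chromosomes, gene length and samples far from their group were chosen after seeing the data.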

Additional observations from a re-analysis of the deposited data

Results flagged for a closer look

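Probe sets without a single gene symbol also differed. Of 7150 such probe sets, 502 were called higher and 468 lower in wild-type lymphomas. Among them, 4 were at the floor in all 3 normal samples and called higher in the tumors. The highest of these 4 had levels of 4.91, 4.46 and 4.98 in the lymphomas, a difference of 1.46 with a limma adjusted p of 0.0129. They are not named here, and no group of samples was large enough for a test of single outlying samples.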

How the results depend on the processing

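No called gene of the lists or the ranking changed direction in any of the 16 alternatives, and 344 of 504 were called in all of them. Leaving out 1 sample gave 3664 to 5218 called probe sets, 1744 to 2521 higher and 1920 to 2697 lower; the lowest counts came without tumor replicate 1. With a fold change of at least 2 required as well, 2408 were called, 1446 higher and 962 lower, so the balance turned toward rises. It also turned when arrays were centred on their medians (3315 higher, 2841 lower), which shifted the median difference by 0.051, and without dim probe sets (3282 and 2951). With a replicate block 4270 were called, 1964 higher and 2306 lower. Deviations from the group means correlated at 0.117, 0.094 and -0.099 between samples that share a replicate number. Other pairs ran from -0.255 to 0.177. With 3 samples a group, these values cannot decide whether the numbers pair the samples. Each list count was set against its main value in each of the 16 alternatives. Of these comparisons 1380 stayed within 1.5 times, and 252 moved by more or went to or from 0. Signal near the floor limits what can be read of dim genes.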
